A study of Homo sapiens with 6 samples.

Results

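Integrin and laminin chain genes were examined in WM266.4 cells, an established human melanoma cell line, after silencing of the kinase RIPK4. The genes were the protein-coding entries of the deposited count table whose symbols start with ITGA or ITGB, without the binding-protein and integrin-like symbols, or with LAMA, LAMB or LAMC and a digit. This rule found 37 of 24526 genes: 17 integrin alpha chains, 8 integrin beta chains and 12 laminin chains. ITGA8 was not analysed here. The comparison was of 3 cultures given a negative control siRNA (neg.si) with 3 cultures given an siRNA specific for RIPK4 (RIPK4.si), all harvested 48 h after transfection. All 6 libraries came from the same line, with no other treatment or genetic change named. Each group received 1 commercial siRNA reagent, so an effect of losing RIPK4 cannot be told apart from any other effect of that reagent.

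Integrins are membrane receptors built from 1 alpha and 1 beta chain, and they tie the extracellular matrix to the actin cytoskeleton. Laminins are trimers of an alpha, a beta and a gamma chain that form the sheet of basement membranes and are themselves ligands of several integrins. In melanoma, the ITGAV and ITGB3 chains are known from invasive growth, and ITGB1 is the common partner of most alpha chains that bind matrix.

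Total counts per library were between 28464057 and 31688095. RIPK4 itself was measured at 85.8, 76.5 and 54.7 CPM (read counts scaled to a common library size) in the control libraries and at 19.9, 16.7 and 21.5 CPM after silencing, here and below in the order of replicates 1, 2 and 3, a log2 fold change of -1.90 (SE 0.203, adjusted p = 0.0102, edgeR quasi-likelihood test). The call of RIPK4 was lost without neg.si replicate 2 (adjusted p = 0.106) and without RIPK4.si replicate 1, 2 or 3 (adjusted p = 0.0940, 0.0622 and 0.0725). The first principal component held 44.9% of the variance and ran from RIPK4.si replicate 2 at -41.5 to neg.si replicate 3 at 56.1, while the groups separated on the second, with 25.6%. All 6 markers of the melanocyte lineage were detected, and their summed level was 2988 to 3122 CPM in neg.si and 2144 to 2155 CPM in RIPK4.si. Of the 6, PMEL fell (280 to 114 CPM, adjusted p = 0.0111), and TYR (1348 to 911 CPM, adjusted p = 0.148) and DCT (700 to 423 CPM, adjusted p = 0.0854) were lower in every RIPK4.si library without passing the edgeR test. DESeq2 called both TYR (adjusted p = 0.0407) and DCT (adjusted p = 0.00352). With each library's trend on GC content removed, edgeR called DCT (adjusted p = 0.0181) but not TYR (adjusted p = 0.105). MITF (348 and 358 CPM), SOX10 (367 and 331 CPM) and MLANA (12.5 and 13.1 CPM) overlapped between groups. The part of this difference in the results below was not tested, and in bulk RNA fewer cells of a type and less RNA per cell cannot be told apart. Summed leukocyte markers were at 1.60 to 2.74 CPM in neg.si and 1.63 to 1.94 CPM in RIPK4.si, and summed endothelial markers at 4.25 to 5.03 and 4.50 to 5.36 CPM. Summed fibroblast markers were at 84.3 to 108 CPM in neg.si and 97.9 to 109 CPM in RIPK4.si, most of it FAP (91.8 and 97.5 CPM), and the defining collagen COL1A1 was at 0.152 and 0.191 CPM.

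WM266.4 cells carried a restricted set of chains at high level. On a scale of CPM per kilobase of transcript, which allows genes of different length to be compared, ITGB1 was highest in neg.si at 318 ± 34.6 (SD, n = 3). ITGB5 (193 ± 29.3) and ITGA5 (149 ± 32.0), the alpha chain of the main fibronectin receptor, came next, and both steps exceeded the larger SD of the neighbours. From ITGA5 downwards the order LAMC1 (128 ± 4.19), LAMB1 (114 ± 18.3), ITGB3 (112 ± 19.2), LAMA4 (111 ± 16.1), ITGA6 (88.2 ± 27.2) and ITGA3 (82.8 ± 24.1) was not resolved, since each gap was under the larger SD of the 2 neighbours. A drop larger than the SD then separated ITGA3 from ITGA4 (49.3 ± 10.6), ITGB8 (38.6 ± 20.9), ITGAV (35.0 ± 8.63) and LAMB2 (31.2 ± 5.73), where each gap to the next was again under the larger SD. LAMA1, ITGA9, ITGA7, LAMB3, ITGAX, LAMA2 and ITGA2 followed between 19.3 and 5.41, and LAMA5, ITGAE, ITGA1, ITGA11, ITGA10 and ITGAM between 3.06 and 1.10. The remaining 11 genes were under 1 CPM per kilobase, from ITGB2 at 0.645 down to LAMC3 at 0.0289.

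**Figure D1:**
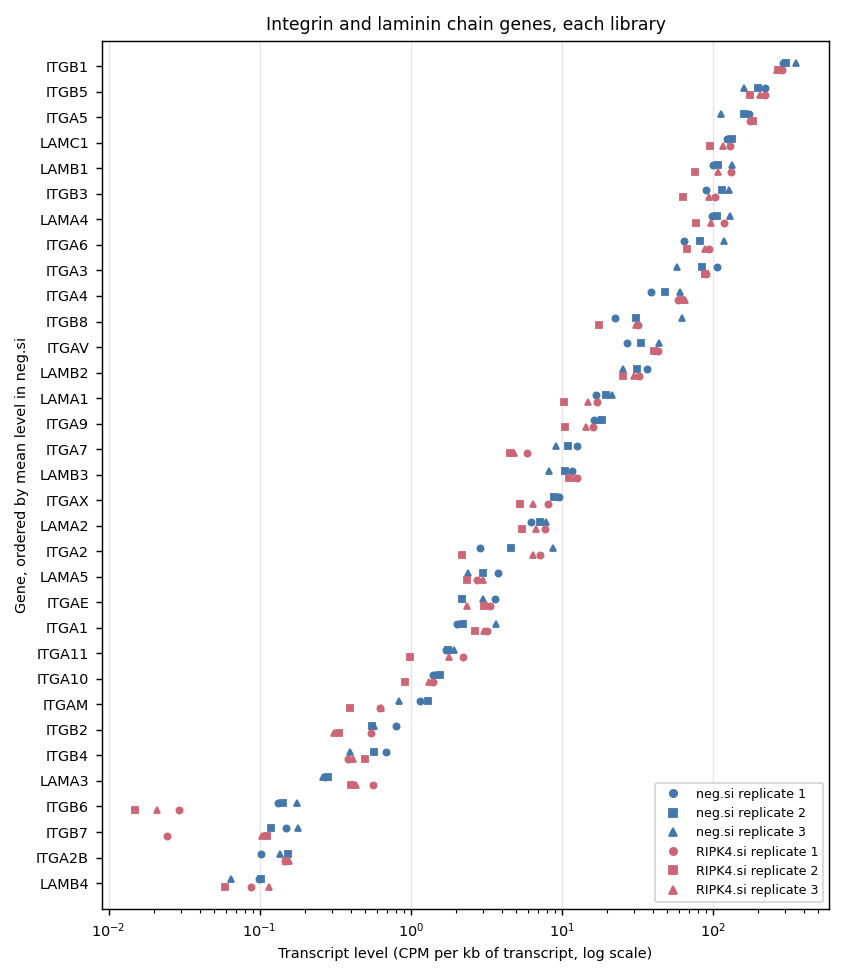
Level of each of the 33 integrin and laminin chain genes tested in each library, as CPM per kilobase of transcript on a log axis, ordered by the neg.si mean, with neg.si in blue, RIPK4.si in red and a marker shape for each replicate. ITGB1, at 318 in neg.si, is highest and LAMB4, at 0.0886, lowest, and the 2 colours part most clearly for ITGA7 and ITGB6.

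Among laminins a single combination of chains dominated. LAMA4 made up 78.8% ± 1.20 (SD, n = 3) of the summed per-kilobase level of the alpha chains in neg.si and 80.3% ± 0.747 in RIPK4.si. LAMB1 made up 73.1% ± 6.46 of the beta chains, ahead of LAMB2 at 20.3% ± 4.90 and LAMB3 at 6.59% ± 1.55. LAMC1 made up 99.9% of the gamma chains. These are the chains of the laminins known from vessel walls and other mesenchymal sites. The summed alpha level was 1.10 ± 0.146 times the summed gamma level in neg.si and 1.06 ± 0.0703 times in RIPK4.si, and the summed beta level 1.21 ± 0.102 and 1.27 ± 0.0918 times. Among integrin beta chains ITGB1 held 47.9% ± 2.06 of the summed level in neg.si, ITGB5 29.4% ± 6.22, ITGB3 16.8% ± 2.01 and ITGB8 5.70% ± 2.70. Among alpha chains ITGA5 held 32.5% ± 6.55, ITGA6 19.3% ± 6.27, ITGA3 18.0% ± 5.04 and ITGA4 10.8% ± 2.49.

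After silencing of RIPK4, the laminin receptor chain ITGA7 fell, and none of the 33 chain genes tested rose at an adjusted p under 0.05. The epithelial beta chain ITGB6 was also called lower, at a level near the detection limit in both groups. Of the 37 genes, 33 passed the filter on low counts, and ITGAL, ITGAD and LAMC3 were among those that did not. ITGB6 and ITGB7 passed only through the neg.si libraries, where they were higher, so a call of ITGB6 is no independent support for a direction and is given as a description. Exons of ITGA7, LAMA1, ITGA1, ITGA4, ITGA5, ITGA6, ITGA9, ITGAE, ITGB1, ITGB2, ITGB7, ITGB8, LAMA2, LAMA4, LAMA5 and LAMB1 overlap a gene on the other strand, and since counting ignored strand their values are uncertain to that extent. Of the 33 tested, 2 (ITGA7 and ITGB6) had an adjusted p under 0.05, both lower in RIPK4.si, against 0.767% of the 16297 genes tested in either direction and 0.393% called lower. Without ITGB6 and ITGB7, ITGA7 alone was called among the remaining 31. With an unadjusted p under 0.05 there were 6, of which 5 were lower (all genes 6%) and 1 was higher (all genes 4.85%), so 6 of 33 stood against 10.8% of all genes, or 5 of 31 (4 lower) without ITGB6 and ITGB7. Libraries of the groups did not overlap for 11 genes, or for 9 of 31 without ITGB6 and ITGB7 (7 lower and 2 higher), against 17.6% of all genes in either direction (9.4% lower and 8.23% higher). The log2 fold change was within 0.5 of no change for 26 of the 33. DESeq2 called 2 (ITGA7 and ITGAM) where 2.91% of its genes were called and gave no adjusted p for 7 of the 37, ITGB6 among them. With each library's trend on GC content removed, edgeR called ITGA7 and ITGB6 where 3.54% of genes were called.

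The share of lower values depended on which RIPK4.si library was included. A total of 24 were lower in RIPK4.si, against 53.4% of all genes, with a median log2 fold change of -0.12 (all genes -0.02), or 22 of 31 with a median of -0.11 without ITGB6 and ITGB7. RIPK4.si replicate 2 was the lowest of its group in 25 of the 33 genes, against 41.4% of all genes, and RIPK4.si replicate 1 the highest in 25, against 35.1%. The median chain gene was lower by 0.28 in replicate 2 than in the mean of the other 2 RIPK4.si libraries on the log2(CPM + 0.5) scale (all genes -0.0055), and higher by 0.29 in replicate 1 (all genes 0.0044). Without RIPK4.si replicate 2, 17 of the 33 were lower, with a median of -0.02 (all genes -0.0077), and without RIPK4.si replicate 1, 25 of 33 were lower, with a median of -0.26 (all genes -0.02). With 1 of the other 4 libraries left out, 19 of 32 to 23 of 33 were lower.

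**Figure D2:**
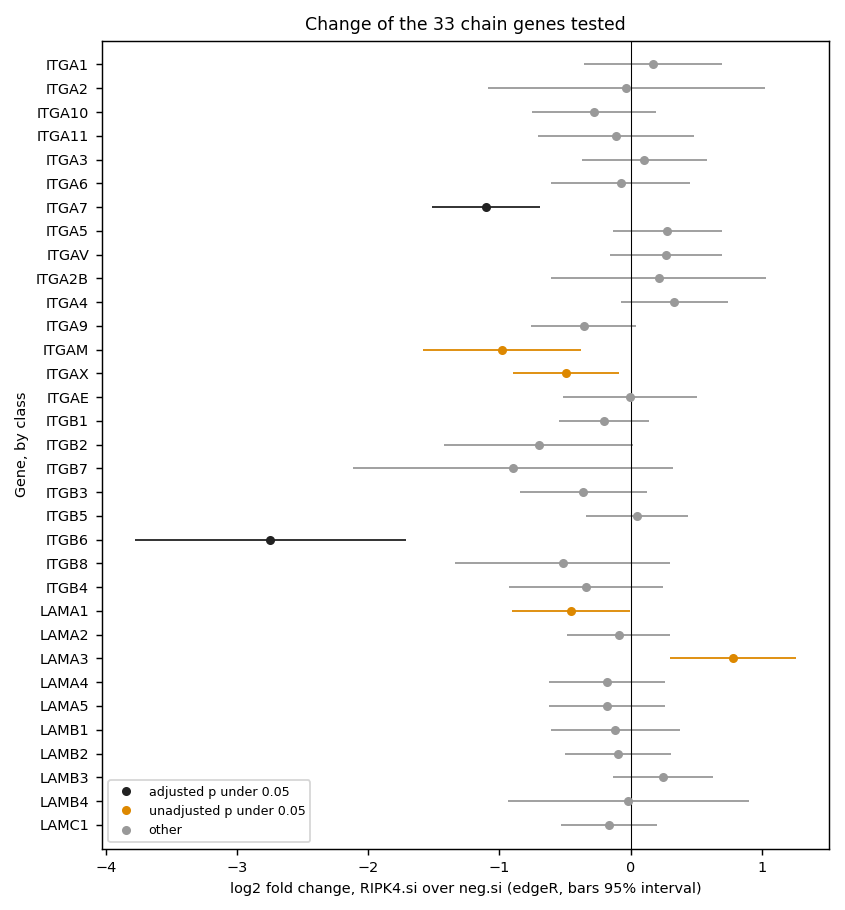
Log2 fold change of RIPK4.si over neg.si for the 33 chain genes tested, by class, with 95% intervals from edgeR. ITGA7 at -1.10 and ITGB6 at -2.75 passed the adjusted threshold (black), ITGAM, ITGAX, LAMA1 and LAMA3 only the unadjusted one (orange), and 26 of 33 points lie within 0.5 of no change.

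Of the laminin-binding alpha chains, ITGA3, ITGA6 and ITGA7, the last alone was called. ITGA7, known as the laminin receptor chain of muscle, lies on chr12:55684568-55716043 (GRCh38, minus strand). The neg.si libraries held 1621, 1373 and 1194 counts of it and the RIPK4.si libraries 716, 541 and 622, which correspond to 52.3, 45.7 and 37.6 CPM and to 24.4, 18.7 and 20.0 CPM. Every RIPK4.si library was below every neg.si library. The mean went from 45.2 ± 7.39 to 21.0 ± 2.98 CPM (SD, n = 3), a log2 fold change of -1.10 (SE 0.184, 95% interval -1.52 to -0.69, adjusted p = 0.0397). The direction held in all 6 fits that left out 1 library, with log2 fold changes from -1.22 to -0.97, but the call was kept only without neg.si replicate 3 (adjusted p = 0.00709). It was lost without neg.si replicate 1 or 2 (adjusted p = 0.0589 and 0.257) and without RIPK4.si replicate 1, 2 or 3 (0.139, 0.150 and 0.278). Strand was ignored in counting, and exons of ITGA7 meet those of METTL7B, BLOC1S1 and AC009779.3 on the other strand. In the deposited coordinates METTL7B ends at 55684611, and BLOC1S1 and AC009779.3 start at 55716037 and 55716036, at the ends of ITGA7. METTL7B was at 21.7 ± 5.04 CPM in neg.si and 16.3 ± 1.84 CPM in RIPK4.si (log2 fold change -0.42, adjusted p = 0.528), and BLOC1S1 (-0.12, adjusted p = 0.956) and AC009779.3 (0.16, adjusted p = 0.941) were at 3.52 and 1.19 CPM in neg.si.

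The other 2 chains of this class were more abundant and were not called. ITGA3, a receptor chain for epithelial laminins, was at 519, 412 and 284 CPM in neg.si and at 444, 431 and 432 CPM in RIPK4.si (log2 fold change 0.11, 95% interval -0.37 to 0.58, adjusted p = 0.943). ITGA6, which pairs with ITGB1 or with ITGB4 of hemidesmosomes, was at 375, 478 and 685 CPM in neg.si and at 551, 393 and 515 CPM in RIPK4.si (log2 fold change -0.08, 95% interval -0.60 to 0.45, adjusted p = 0.967). In both genes the neg.si libraries spread by 1.83-fold between the lowest and the highest, and every RIPK4.si value fell inside the control range. Per kilobase, ITGA3 and ITGA6 together were 15.9 ± 3.03 times ITGA7 in neg.si and 34.1 ± 2.58 times in RIPK4.si (SD, n = 3). ITGA7 made up 2.39% ± 0.361 of the summed alpha chains in neg.si and 1.02% ± 0.113 in RIPK4.si.

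The RGD-binding alpha chains recognise an arginine-glycine-aspartate motif in ligands such as fibronectin and vitronectin, and none of the 3 measured was called. ITGA5 was at 735, 687 and 480 CPM in neg.si and at 754, 785 and 769 CPM in RIPK4.si, so the groups did not overlap (log2 fold change 0.28, 95% interval -0.13 to 0.69, adjusted p = 0.700). Most of this gap came from neg.si replicate 3, the lowest of the 6. ITGAV, which pairs with ITGB3, ITGB5, ITGB6 and ITGB8, was at 191, 237 and 312 CPM in neg.si and at 307, 287 and 299 CPM in RIPK4.si (log2 fold change 0.27, 95% interval -0.15 to 0.70, adjusted p = 0.727). ITGA2B, the platelet chain, was at 0.453 ± 0.0903 CPM in neg.si and 0.526 ± 0.0185 CPM in RIPK4.si. ITGA4 and ITGA9 bind sites in fibronectin and vascular or matrix ligands outside the RGD motif. ITGA4 was at 265.6, 328 and 409 CPM against 399, 420 and 445 CPM (log2 fold change 0.33, 95% interval -0.07 to 0.74, adjusted p = 0.583). ITGA9 was at 129, 144 and 139 CPM against 126, 82.4 and 114 CPM, every RIPK4.si library below every neg.si library (log2 fold change -0.36, 95% interval -0.76 to 0.04, adjusted p = 0.531).

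The collagen-binding alpha chains were low, and none of the 4 was called. ITGA2 was the least stable gene of the class: its neg.si libraries were at 22.5, 36.3 and 68.5 CPM and its RIPK4.si libraries at 56.5, 17.2 and 50.7 CPM. The interval of its log2 fold change, -1.09 to 1.02, included a doubling or halving in either direction. ITGA1 was at 28.4 ± 9.81 CPM in neg.si and 31.9 ± 2.87 CPM in RIPK4.si (log2 fold change 0.17, adjusted p = 0.907). ITGA10 (log2 fold change -0.28, adjusted p = 0.759) and ITGA11 (-0.11, adjusted p = 0.953) were under 20 CPM in neg.si.

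Integrin chains named for leukocytes were detected, and none had an adjusted p under 0.05. ITGAM, the alpha chain of a complement receptor on myeloid cells (chr16:31259967-31332892, plus strand), was at 5.46, 6.13 and 3.93 CPM in neg.si and at 2.96, 1.87 and 3.02 CPM in RIPK4.si. Each RIPK4.si library was below each neg.si library (log2 fold change -0.98, SE 0.267, 95% interval -1.58 to -0.38, adjusted p = 0.167). DESeq2 called ITGAM (adjusted p = 0.0465), and so did edgeR without neg.si replicate 3 (adjusted p = 0.0452). ITGAX, the neighbouring gene for a related myeloid chain (chr16:31355134-31382997, plus strand), was at 44.6, 41.7 and 44.2 CPM against 37.7, 24.8 and 30.2 CPM, also without overlap (log2 fold change -0.49, SE 0.179, adjusted p = 0.332). Their shared partner ITGB2 was at 2.26, 1.56 and 1.60 CPM against 1.53, 0.935 and 0.868 CPM, again without overlap (log2 fold change -0.70, 95% interval -1.42 to 0.02, adjusted p = 0.480). Per kilobase, ITGAX was 14.8 ± 2.57 times ITGB2 in neg.si and 17.2 ± 3.28 times in RIPK4.si, so transcripts of the alpha chain outnumbered those of its partner in all 6 libraries. PTPRC, the defining marker of leukocytes, was at 0.312 CPM in neg.si and 0.237 CPM in RIPK4.si, far under ITGAX. ITGAE (11.1 ± 2.72 and 11.1 ± 1.89 CPM, adjusted p = 0.998), and its partner ITGB7, at 0.419 and 0.223 CPM (log2 fold change -0.90, adjusted p = 0.652), were not called. ITGAL had 19 counts in the neg.si libraries together and 12 in RIPK4.si, and ITGAD 21 and 19. Both were under the filter, and DESeq2, which kept them, gave fold changes but no adjusted p.

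**Figure D3:**
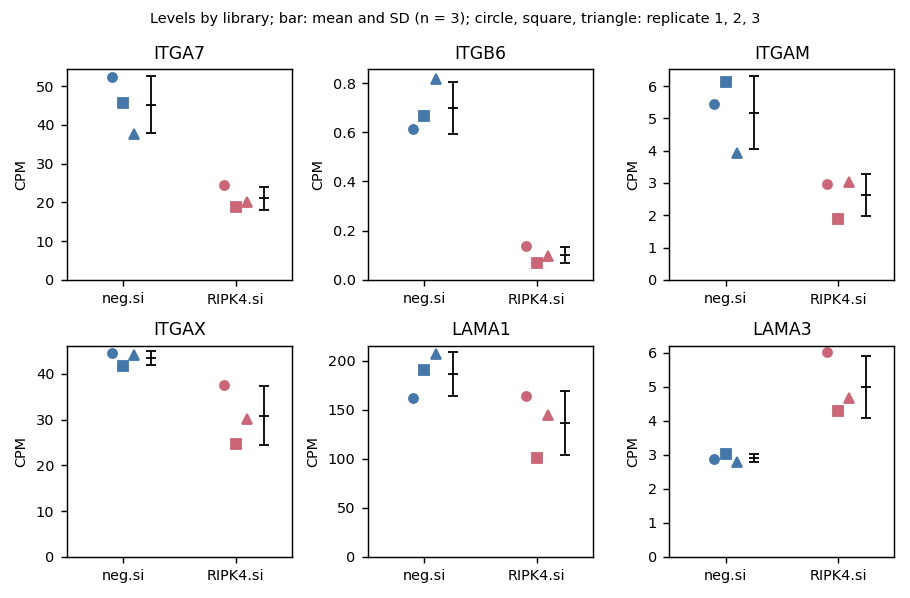
CPM of the 6 chain genes with an unadjusted p under 0.05 in each library, with the mean and SD of each group (n = 3) as a bar beside the points. All RIPK4.si points of ITGA7, ITGB6, ITGAM and ITGAX lie below the neg.si points, those of LAMA3 above, and those of LAMA1 overlap with neg.si.

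Of the 6 beta chains that did not enter the test through the neg.si libraries alone, 5 had a negative log2 fold change, against 53.4% of all genes (median -0.35, all genes -0.02), and none was called. ITGB6 and ITGB7 entered through neg.si alone, and ITGB6 was called lower. ITGB6, on chr2:160099667-160200313 (minus strand), pairs with ITGAV in epithelia and activates latent TGF-beta. It was close to the lower limit of the assay, with 19, 20 and 26 counts in the neg.si libraries and 4, 2 and 3 counts in the RIPK4.si libraries, or 0.613, 0.666 and 0.819 CPM against 0.136, 0.0692 and 0.0965 CPM. The fitted log2 fold change was -2.75 (SE 0.460, 95% interval -3.78 to -1.71, adjusted p = 0.0397, or 0.0383 over all genes with no filter on low counts). Scaled to library size, the 9 counts in RIPK4.si were 14.4% of the 65 in neg.si, with an exact Clopper-Pearson 95% interval of 6.29% to 29.0% that covers counting error only. The direction was the same in every fit that left out 1 library, but the call held only without neg.si replicate 3 (adjusted p = 0.0365) and was lost without neg.si replicate 1 or 2 (0.0659 and 0.244) or RIPK4.si replicate 1, 2 or 3 (0.158, 0.151 and 0.287). Of the 5 keratinocyte markers in the table, KRT5 and KRT14 were at 0 in 4 of the 6 libraries and DSG3 in 1, CDH1 was at 0.283 CPM in neg.si and 0.267 CPM in RIPK4.si, and KRT10 was at 10.5 and 13.9 CPM, higher in every RIPK4.si library (adjusted p = 0.438). Their part in the ITGB6 values was not tested.

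None of the abundant beta chains was called. ITGB1 was at 1091, 1137 and 1334 CPM in neg.si and at 1077, 1016 and 998 CPM in RIPK4.si, without overlap but with a log2 fold change of only -0.21 (95% interval -0.55 to 0.14, adjusted p = 0.754). ITGB5 was at 859 ± 130 and 889 ± 99.9 CPM (log2 fold change 0.05, 95% interval -0.34 to 0.44, adjusted p = 0.972), the smallest difference among the beta chains. ITGB3 was at 538, 687 and 763 CPM against 610, 378 and 558 CPM (log2 fold change -0.36, 95% interval -0.85 to 0.12, adjusted p = 0.640). ITGB8, a further partner of ITGAV, was at 201, 280 and 558 CPM against 287, 158 and 280 CPM (log2 fold change -0.52, 95% interval -1.34 to 0.30, adjusted p = 0.732). Without neg.si replicate 3 the log2 fold change of ITGB8 was 0.01, so its difference rested on that library. ITGB4, the chain of hemidesmosomes, was at 3.24 ± 0.860 and 2.56 ± 0.344 CPM (adjusted p = 0.764).

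Among the 10 laminin chains tested 8 had a negative log2 fold change, against 53.4% of all genes (median -0.11, all genes -0.02), and none was called by edgeR or DESeq2. At an unadjusted p under 0.05 there were 2, LAMA1 lower and LAMA3 higher, against 10.8% of all genes. LAMA3, the alpha chain of the epidermal laminin (chr18:23689443-23956222, plus strand), was at 2.87, 3.03 and 2.80 CPM in neg.si and at 6.03, 4.29 and 4.66 CPM in RIPK4.si. All RIPK4.si libraries were above all neg.si libraries (log2 fold change 0.78, SE 0.214, 95% interval 0.30 to 1.26, adjusted p = 0.167, DESeq2 adjusted p = 0.0733). Its partner LAMB3 was at 46.9, 42.5 and 33.0 CPM against 51.0, 45.0 and 49.0 CPM (log2 fold change 0.24, 95% interval -0.14 to 0.63, adjusted p = 0.726). The 5 keratinocyte markers in the table summed to 10.5 to 12.2 CPM in neg.si and 12.3 to 16.2 CPM in RIPK4.si, most of it KRT10, and their part in the LAMA3 values was not tested. LAMA1, an alpha chain known from embryonic basement membranes (chr18:6941742-7117797, minus strand), was at 162, 190 and 207 CPM against 164, 100 and 145 CPM. The groups overlapped through RIPK4.si replicate 1 (log2 fold change -0.45, SE 0.200, 95% interval -0.90 to -0.0020, adjusted p = 0.457). Exons of LAMA1 overlap those of AP002409.1 on the other strand.

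For the chains of the dominant laminin the groups differed by less than the larger SD. LAMA4 was at 709, 771 and 934 CPM against 863, 557 and 707 CPM (log2 fold change -0.18, 95% interval -0.63 to 0.26, adjusted p = 0.865). LAMB1 was at 565, 610 and 763 CPM against 745, 434 and 609 CPM (log2 fold change -0.12, 95% interval -0.61 to 0.37, adjusted p = 0.935). LAMC1 was at 991, 1055 and 1007 CPM against 1032, 765 and 926 CPM (log2 fold change -0.17, 95% interval -0.53 to 0.20, adjusted p = 0.838). All 3 chains were lowest in RIPK4.si replicate 2 and, within that group, highest in replicate 1. LAMB2 (log2 fold change -0.10, adjusted p = 0.935), LAMA2 (-0.09, 0.938), LAMA5 (-0.18, 0.866) and LAMB4 (-0.02, 0.997) were likewise not called. LAMC3 had 20 counts in neg.si and 11 in RIPK4.si.

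The spread within the control group went with the base composition of the transcripts. Across the 33 tested genes, the deviation of neg.si replicate 1 from the other 2 neg.si libraries went with GC content at a Spearman correlation of 0.82, and that of neg.si replicate 3 at -0.81. Over 16239 genes the corresponding values were 0.65 and -0.65, and in the RIPK4.si libraries the values for the chain genes lay between -0.28 and 0.31. The points share libraries, and the 3 deviations of a group are not independent. ITGA2 (GC content 40.1%) and ITGB8 (38.7%) were higher in neg.si replicate 3 by 1.24 and 1.23 on the log2(CPM + 0.5) scale, and ITGA3 (60.9%) was lower, at -0.70. With the GC trend removed, ITGA7 kept its call (log2 fold change -1.12, adjusted p = 0.00655), the value of ITGB6 was -2.72 (adjusted p = 0.0142), and LAMA3 (adjusted p = 0.0525) and ITGAM (adjusted p = 0.0657) came closer to the threshold without passing it.

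**Figure D4:**
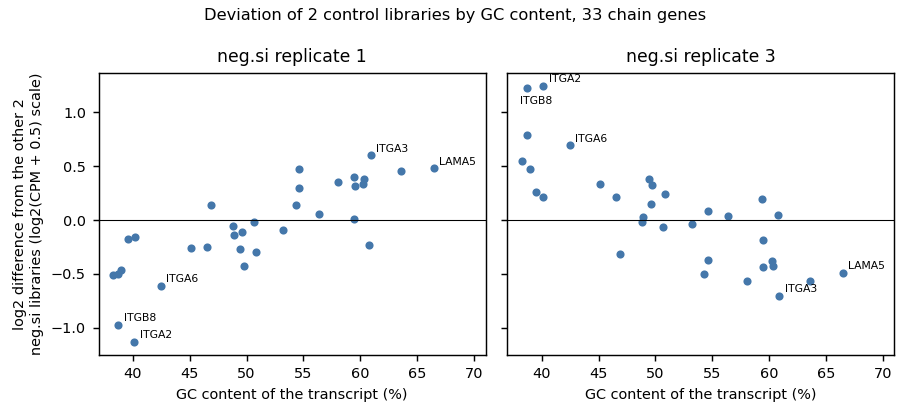
Deviation of neg.si replicates 1 and 3 from the other 2 neg.si libraries on the log2(CPM + 0.5) scale (vertical axis) against the GC content of the transcript (horizontal axis) for the 33 chain genes tested. The points rise in replicate 1 (Spearman correlation 0.82) and fall in replicate 3 (-0.81), with ITGA2 and ITGB8 at one end and ITGA3 near the other.

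The 3' UTR of the canonical transcript was searched, on the transcript's own strand, for ACAGCTT and AGCAACC, both of 7 bases and picked with earlier results of these data known. ACAGCTT was present in 4 of the 33 chain genes, against 14.8% of 12972 protein-coding genes, where the median log2 fold change was -0.11 with it and -0.00097 without it. AGCAACC was present in 0 of 33, against 7.54% of the same genes, where the medians were 0.06 with it and -0.02 without it. Among these protein-coding genes the median 3' UTR was 3160 bases with ACAGCTT and 1104.5 without it. For AGCAACC it was 3170 bases with it and 1220 without it. The part of 3' UTR length in the fold changes was not tested. The sites are shown with the match in capitals because they show which chains carry it. All lie in the 3' UTR on GRCh38, on chr3:37821545-37821574 (plus strand) for ITGA9, chr1:209615249-209615270 (minus strand) for LAMB3, chr1:183143646-183143675 (plus strand) for LAMC1, and chr5:52954868-52954897 (plus strand) for the first of 3 copies in ITGA1.
ITGA9: acagcaccatcaACAGCTTtggccacatgc
LAMB3: tgctACAGCTTccagcccgttg
LAMC1: aaactaattcttACAGCTTttttattagtt
ITGA1: aaatgtttcaaaACAGCTTtgtacaaatgt
The log2 fold changes of these 4 genes were -0.36, 0.24, -0.17 and 0.17, and none of the 6 chain genes with an unadjusted p under 0.05 was among them. A match is a description of the sequence and no site of action was tested.

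Other genes of integrin adhesion and the laminin network, which included regulators, adaptors and ligands of integrins, other matrix receptors and laminin network components, were read from a list of 72, of which 70 were in the table and 65 were tested. Of these, 4 rose and 1 fell at an adjusted p under 0.05, against 0.767% of all genes, with 22 at an unadjusted p under 0.05 (12 higher, 10 lower, all genes 10.8%) and a median log2 fold change of -0.00063. The list was chosen with earlier results of these data known, so these shares are descriptions. ILK, among the 10 lower, had 13, 13 and 10 counts in neg.si and 7, 2 and 5 in RIPK4.si. ILK passed the filter on low counts only through neg.si, where it was higher, and is no independent support for a direction. The matricellular ligands CCN2 and CCN1 rose. CCN2 was at 56.8, 62.6 and 58.9 CPM in neg.si and at 131, 149 and 140 CPM in RIPK4.si (log2 fold change 1.24, SE 0.139, adjusted p = 0.0102). CCN1 was at 5.39, 5.96 and 5.79 CPM against 13.5, 17.1 and 13.7 CPM (log2 fold change 1.37, SE 0.180, adjusted p = 0.0196). In both genes the lowest RIPK4.si library was more than 2 times the highest neg.si library. The syndecans SDC4 and SDC2, heparan sulphate proteoglycans that bind matrix beside integrins, rose by 0.95 (adjusted p = 0.0329) and 0.76 (adjusted p = 0.0451) on the log2 scale. SDC4 was at 58.0, 58.3 and 54.0 CPM against 98.5, 122 and 109 CPM, and SDC2 at 163, 154 and 156 CPM against 256, 284 and 261 CPM. CASS4, a focal adhesion scaffold of the same family as BCAR1 and NEDD9, fell, from 2.03, 1.63 and 1.79 CPM to 0.341, 0.277 and 0.418 CPM (log2 fold change -2.38, SE 0.319, adjusted p = 0.0222). None of these 5 kept its call without neg.si replicate 2 or without RIPK4.si replicate 1, 2 or 3, where the list had 0 calls. SDC2 also lost its call with the replicate block (adjusted p = 0.0665), without neg.si replicate 1 (0.0705) and when low counts were not filtered out (0.0543). CASS4, with 10, 8 and 13 counts in RIPK4.si, was not tested when at least 10 counts were asked of every library.

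The next 5 genes by p-value did not pass edgeR's adjusted threshold. They were CAV1, a caveolar partner of integrins (log2 fold change 0.87, adjusted p = 0.0540), DAG1, the laminin receptor dystroglycan (-0.88, adjusted p = 0.0558), TLN2, a talin that activates integrins (-0.74, adjusted p = 0.0719), FBN1, a microfibril protein with an RGD site (-0.70, adjusted p = 0.0970), and PARVG, a parvin (-0.89, adjusted p = 0.106). For all 5 the libraries of the groups were fully separated. DAG1 was at 676, 648 and 502 CPM in neg.si and at 302, 361 and 326 CPM in RIPK4.si, with adjusted p-values of 0.00104 by DESeq2 and 0.0101 by edgeR with the GC trend removed. All 5 were called by both of these. CAV1 (adjusted p = 0.0465), DAG1 (0.0135) and TLN2 (0.0198) were also called without neg.si replicate 3, and CAV1 with the replicate block (0.0481) and with upper-quartile normalization (0.0442). With the replicate block and the GC trend removed together, all but PARVG were called. DESeq2 and the fit with the GC trend removed each called 12 genes of the list, against 2.91% and 3.54% of all genes. ITGA7, ITGAM, CCN1, CCN2, SDC2, CASS4, CAV1, DAG1, TLN2 and PARVG were among the genes the study displayed from these same samples, so their direction is not independent evidence.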

How the data were processed

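Poly(A) RNA of 6 WM266.4 cultures, 3 neg.si and 3 RIPK4.si, was sequenced as paired reads. Per the labels and methods, the authors used Cutadapt for trimming, TopHat for alignment (build GRCh38.p13) and HTSeq, without strand, for counting read pairs. The deposited counts are whole numbers for 24526 genes. The deposited signal values, counts divided by the authors' DESeq2 size factors, and the authors' comparison columns (fold changes, p-values) were not used. The time of 48 h is from the study's results text.

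The counts were fitted in R 4.3.3 by edgeR 4.0.16 (TMM, filterByExpr, quasi-likelihood test, Benjamini-Hochberg adjustment over 16297 genes), which gave each adjusted p-value for which no other tool is named. The scripts were first tested on simulated data. CPM used normalized library sizes. Lengths, GC content, 3' UTRs and overlaps came from GENCODE release 44, in which 24416 identifiers were found. Alternatives were DESeq2 1.42.0, other size factors, other filters, a block on the replicate number, removal of each library's GC trend (lowess, span 0.3) and each library left out. Python 3.11.15 was used outside R.

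The genes and lists were chosen with earlier results of these data known. Genes with an unadjusted p under 0.05, their listed partners, the 2 most abundant of each class, called genes of the pathway list and its next 5 by p-value were named, and the overlapping neighbours of ITGA7 were added after values were seen. The study describes the replicates as independent experiments. With about equal totals, depth limits genes with few counts. The values of 1 gene are not reported here.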

Additional observations from a re-analysis of the deposited data

How the results depend on the processing

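The count of called chain genes, 2 of 33 by edgeR, was 1 with at least 10 counts in every library (where ITGB6 was not tested) and 1 with the replicate block (ITGB6 adjusted p = 0.0567), and 2 with DESeq2, the other normalizations, no filter and both fits without the GC trend. With 1 library left out it ranged from 0 to 3. Correlations of same-numbered deviations were -0.24, 0.25 and 0.35, and the largest between different numbers was 0.41. With so few libraries these values cannot decide whether the replicate numbers pair the libraries. The 5 called genes of the pathway list became 12 with DESeq2, 12 with the GC trend removed and 11 with the replicate block and the GC trend removed, and 0 to 9 when 1 library was left out. With the replicate block alone the list again had 5, CAV1 in place of SDC2. Over all genes the 125 calls became 437 with DESeq2, 575 with the GC trend removed and 501 with both the replicate block and the GC trend removed, and 0 to 295 when 1 library was left out. Calls over all genes were 0 without neg.si replicate 2, RIPK4.si replicate 1 or RIPK4.si replicate 3 (1153, 1426 and 1086 at an unadjusted p under 0.05, edgeR) and 295 without neg.si replicate 3. The log2 fold change of RIPK4 ranged from -2.06 to -1.74 with 1 library left out. For the 6 chain genes with an unadjusted p under 0.05, no alternative turned the direction. The cause of these differences in counts was not tested. ITGB6, ITGB7, ITGAL, ITGAD and LAMC3 are limited by depth, with 9 to 65 counts in a group of 3 libraries.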

Other observations

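The beta chain ITGB1 was lower relative to the alpha chains with which it pairs. Per kilobase, ITGB1 was 0.654, 0.676 and 0.820 times the sum of its alpha partners in neg.si replicates 1, 2 and 3 and 0.575, 0.585 and 0.537 times in RIPK4.si replicates 1, 2 and 3, so the groups did not overlap. The partners summed here included ITGAV, which also pairs with other beta chains. These chains differ in GC content, and its part in the ratio was not tested. The summed alpha chains were at 461, 463 and 449 CPM per kilobase in neg.si and at 514, 474 and 508 in RIPK4.si, again without overlap, while the summed beta chains overlapped, at 627, 651 and 711 against 645, 530 and 597. The ratio was looked at after the values were known, and an exact permutation test of 3 against 3 libraries cannot give a p below 0.1.

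The laminin alpha chains are given here as shares of their own sum, so a lower share of one raises the others. LAMA1 made up 13.3% to 14.4% of the summed alpha level in neg.si and 10.9% to 12.2% in RIPK4.si, LAMA2 4.85% to 5.27% and 5.29% to 5.67%, and LAMA3 0.163% to 0.215% and 0.356% to 0.421%, although the levels of LAMA1 and LAMA2 overlapped. LAMB3 was 37.2 ± 6.04 times LAMA3 per kilobase in neg.si and 26.0 ± 3.13 times in RIPK4.si (SD, n = 3). These shares were also chosen after the values were seen and were not tested.

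ITGA5 and ITGAV, which both serve fibronectin receptors, stood at a ratio of 6.37, 4.80 and 2.55 per kilobase in the 3 neg.si libraries and at 4.07, 4.54 and 4.26 in the RIPK4.si libraries, so the control libraries differed from each other by more than the groups did.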
